A study of Mus musculus with 3 samples.

Results

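The genes described here encode proteins of the synaptic vesicle, of its fusion machinery and of the active zone, the patch of presynaptic membrane where vesicles are released. They were chosen as 40 named genes whose symbol was present in the deposited gene table with 20 or more estimated counts in 1 library or more. All 40 were found among the 51826 genes of the table and met that minimum, as did 18074 genes in all. RNA of spinal cord from mouse embryos (strain background C57BL/6) at embryonic day 13.5 had been sequenced as 3 libraries, 1 for each genotype. WT is wild type, dE3 is Nestin-Cre with a floxed exon 3 of Ctnnb1, labelled as a gain of function, and cKO is Nestin-Cre with floxed exons 2 to 6 of Ctnnb1, labelled as a loss of function. Ctnnb1 encodes β-catenin, which joins cadherins to the cytoskeleton and carries canonical Wnt signals to TCF/LEF factors. Nestin-Cre recombines in neural progenitors, whose neurons and glia then carry the change, and the label of the WT library names no Cre. The residues that are phosphorylated to send β-catenin to breakdown lie in exon 3. The number of embryos behind each library is not stated in the labels, so every value below compares single libraries.

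Neurotransmitter is loaded into synaptic vesicles, which are held near the active zone by synapsins and scaffold proteins, docked by Rab3 and RIM, primed by Munc13, and fused with the membrane by SNARE proteins when a synaptotagmin binds calcium. Vesicle membrane is then taken back by endocytic adaptors and refilled. In the embryonic cord these genes are switched on as neurons leave the ventricular zone and extend axons, so their RNA in whole tissue reflects both how many young neurons are present and how much each neuron makes. In bulk RNA fewer cells of a type and less RNA per cell cannot be told apart.

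Estimated counts summed to 32167470 for WT, 34790053 for dE3 and 33048837 for cKO, of which mitochondrial genes took 2.24% to 2.97%. Ctnnb1 itself stood at 544 CPM (counts relative to the TMM-scaled library size) in WT against 461 in dE3 and 422 in cKO. Relative to WT this was 0.847 in dE3, with a 95% counting interval of 0.829 to 0.866, and 0.776 in cKO (0.758 to 0.793). Since exons outside the deleted parts are counted too, this is only a partial check of the labels. The name of the cKO library carries another tag than those of the WT and dE3 libraries, and this tag cannot be told apart from the cKO genotype. All 20 pan-neuronal markers were measured in every library, the highest in WT being Dcx (2205 CPM), Tubb3 (1797) and Ina (1670), so RNA of neurons, the labelled tissue's main cells, was present in all 3. Dorsal root ganglion markers were also present, at a summed 361, 301 and 491 CPM in WT, dE3 and cKO, as were skeletal muscle markers at 35.1, 180 and 60.3 CPM.

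Most of the synaptic genes were modestly lower in the dE3 library than in either other library, while cKO and WT lay close together. The 40 genes summed to 5951 CPM in WT, with 4660 in dE3 and 6063 in cKO. Their share of the authors' TPM values (relative transcript abundance, which divides by length) was 0.381%, 0.304% and 0.400%. The dE3 library was the lowest of the 3 for 34 of 40 genes, cKO for 4 and WT for 2. The commonest order was cKO over WT over dE3, in 22 genes, followed by WT over cKO over dE3 in 12. These orders rank the values alone, whether or not counting error sets the libraries apart, and were not counted over all measured genes. Of all measured genes 49.5% were lower in dE3 than in WT and 48.2% lower in dE3 than in cKO.

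**Figure D1:**
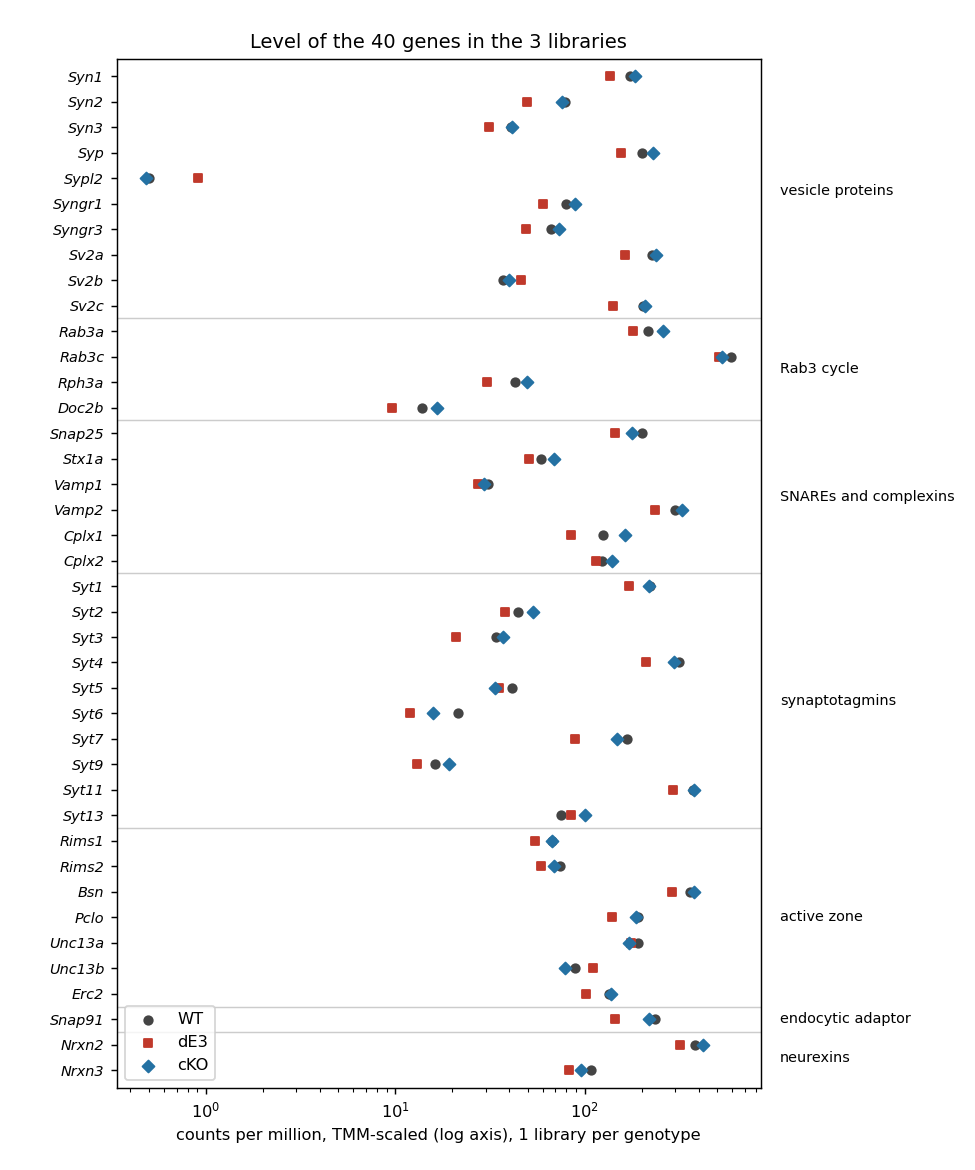
Level of each of the 40 genes (rows, grouped by role) in the WT (circles), dE3 (squares) and cKO (diamonds) libraries, as TMM-scaled CPM on a log axis, 1 library per genotype. The dE3 square is the leftmost point for 34 of 40 genes, and Sypl2 lies at 0.484 to 0.913 CPM, far below the rest.

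Since each genotype is a single library, no difference could be set against a spread between replicates. A gene was described by the ratio of scaled counts with an exact binomial (Clopper-Pearson) interval that covers counting error only, and was called when the ratio passed a fold and the interval excluded 1. In dE3 against WT, 0 of 40 genes were at least 2-fold higher (6.52% of all measured genes were) and 0 were at least 2-fold lower (3.78%). At 1.5-fold, 5 of 40 genes (12.5%) fell, against 8.01% of all measured genes, and 0 rose, against 11.4%. Those that fell were Syn2, Snap91, Syt3, Syt6 and Syt7.

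Small shifts in 1 direction made up the rest. The interval lay wholly below 1 for 36 of 40 genes, against 28.8% of all measured genes, and above 1 for Sv2b, Unc13b and Syt13, against 29.1%. Among genes with at least 100 counts in a library, which have narrower intervals, 32.4% of all genes lay wholly below 1. The median log2 ratio of the 40 genes was -0.36, against 0.00 for all measured genes, and 29 of 40 lay below the lower quartile of all genes (-0.23). When the libraries were instead scaled to the 20 pan-neuronal markers, the median was -0.06 while that of all measured genes moved to 0.30. On that scale Syt7 alone was still at least 1.5-fold lower, and 26 of 40 genes lay below 0. The sign changed for Cplx2, Nrxn2, Rab3a, Rab3c, Rims1, Stx1a, Syt2, Syt5, Unc13a and Vamp1. Shares of all measured genes were not counted on that scale, so those given above do not apply there. With the transcript that differed most left out of each gene, which removed most counts of most genes, the median was -0.17. Scaling to these markers shifts every gene by the same amount, so the gap between the synaptic genes and all genes stayed as it was. Library totals and median-of-ratios factors gave medians of -0.34 and -0.36.

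**Figure D2:**
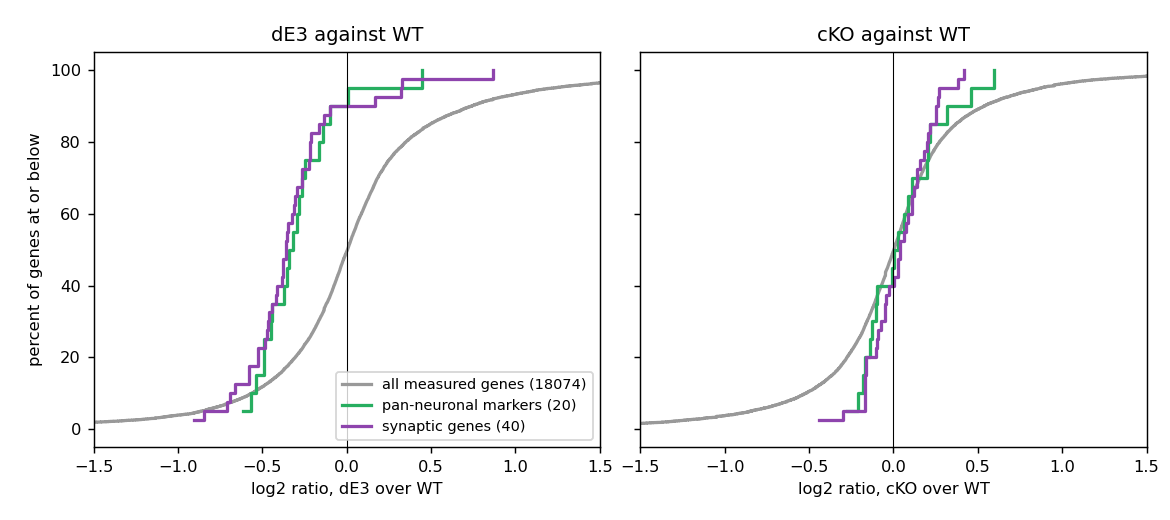
Percent of genes (vertical axis) at or below each log2 ratio (horizontal axis) for the 40 synaptic genes, the 20 pan-neuronal markers and all 18074 measured genes, in dE3 against WT (left) and cKO against WT (right). On the left the synaptic and pan-neuronal lines run together to the left of all genes, with medians of -0.36 and -0.33, and on the right all 3 lines cross near 0.

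In cKO against WT, which shares the WT library with the comparison above, 0 of 40 genes passed 2-fold in either direction (3.48% of all measured genes were higher and 3.41% lower) and 0 passed 1.5-fold (7.2% and 6.67%). The interval lay above 1 for 17 genes (27.2% of all measured genes) and below 1 for 11 (26.7%). The median log2 ratio was 0.04, and the extremes were Syt13 at 0.42 and Syt6 at -0.44. In dE3 against cKO, 7 of 40 genes (17.5%) were at least 1.5-fold lower, against 9.53% of all measured genes, and 1 was higher, against 12.5%. At 2-fold 0 were higher and 0 lower (6.62% and 4.38% of all measured genes). The lower ones were Cplx1, Syt3, Doc2b, Syt7, Rph3a, Syn2 and Snap91, the last with a ratio on the threshold (1.5-fold, 1.45 to 1.56). The higher one was Sypl2, with 32 against 16 counts and an interval that barely excluded 1 (ratio 1.88, 1.004 to 3.68). The median here was -0.42, with the interval below 1 for 34 genes (31% of all measured genes) and above 1 for 3 (33.1%).

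**Figure D3:**
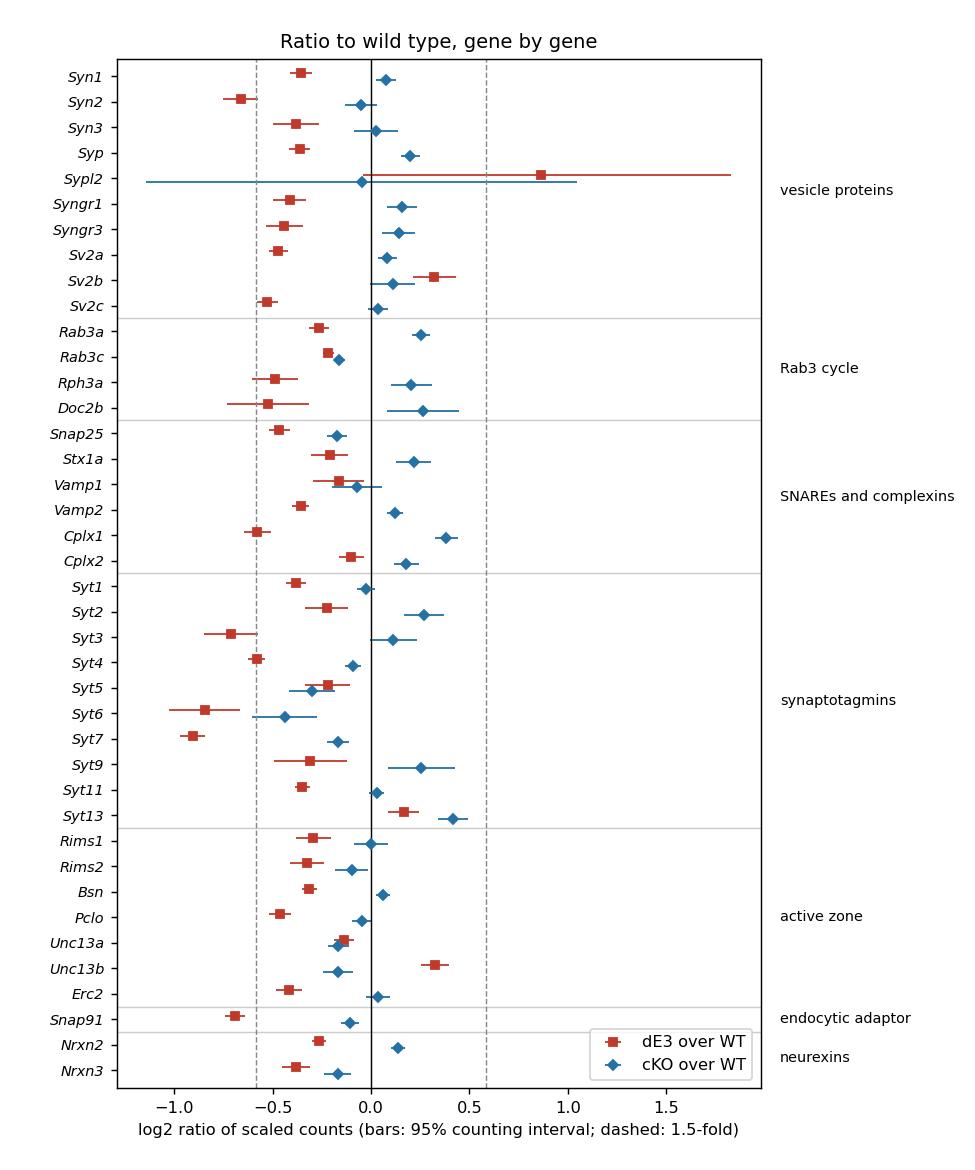
Log2 ratio to WT of each gene in dE3 (squares) and cKO (diamonds), with bars for the 95% counting interval and dashed lines at 1.5-fold. The dE3 squares lie left of 0 for 36 of 40 genes (against 49.5% of all measured genes). The cKO diamonds lie on both sides of 0, all within the dashed lines.

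The vesicle proteins had a median log2 ratio of -0.40 in dE3 against WT and 0.08 in cKO against WT. Synapsins coat the vesicle and tether the reserve pool. Syn1 stood at 174 CPM in WT against 136 in dE3 and 184 in cKO. Syn2 stood at 78.7, 49.7 and 75.9 CPM in the same order, and Syn3 at 40.6, 31.2 and 41.3 CPM. In all 3 genes dE3 was the lowest library and the other two were close. The largest difference was in Syn2 (chromosome 6, 115134902 to 115282006, plus strand, GRCm38), at 1.58-fold lower in dE3 than in WT (1.49 to 1.68). This call was lost, at a log2 ratio of 0.09, without the transcript that differed most, which holds most counts of the gene (Syn2-203, 89.1% of them in WT). Per length, Syn1 was 2.49 times as abundant as Syn2 in WT, 3.04 times in dE3 and 2.73 times in cKO on the TPM scale.

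Synaptophysin (Syp), an abundant protein of the vesicle membrane, and the related synaptogyrins were likewise lowest in dE3. Syp stood at 200.3 CPM in WT, with 156 in dE3 and 230.1 in cKO. Syngr1 stood at 80.0, 60.1 and 89.2 CPM, and Syngr3 at 66.5, 49.0 and 73.4 CPM. In each of these genes cKO was highest and dE3 lowest, and the cKO-to-WT ratio lay between 1.10 and 1.15. Sypl2, a synaptophysin-like protein known from the triad membranes of skeletal muscle, was nearly absent, with 16 counts in WT against 32 in dE3 and 16 in cKO. Its ratio of 1.82 in dE3 against WT had an interval that held 1 (0.972 to 3.56). In dE3, 13 of 14 skeletal muscle markers were at least 2-fold higher than in WT, against 6.52% of all measured genes. In cKO, where Sypl2 was not higher, 9 of 14 were, against 3.48%. Those higher in dE3 included Actc1 (2.19 CPM in WT, 42.9 in dE3, 9.75 in cKO) and Ttn (4.76, 29.8 and 8.60 CPM). Ckm, Tnnc2 and Tnni1 were at 0 in WT. The part of muscle RNA in the Sypl2 value was not tested.

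The SV2 transporters, glycoproteins of the vesicle membrane and the entry route of some botulinum toxins, split. Sv2a stood at 225 CPM in WT, with 163 in dE3 and 239 in cKO, and Sv2c at 203, 141 and 208 CPM. Both were thus lower in dE3, by 1.39-fold (1.34 to 1.43) and 1.44-fold (1.39 to 1.5). Sv2b stood at 37.1, 46.3 and 40 CPM, with dE3 the highest library. Its ratio in dE3 against WT was 1.25 (1.16 to 1.35). Per length, Sv2a was 7.88 times as abundant as Sv2b in WT, 7.71 times in cKO and 4.33 times in dE3 on the TPM scale.

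The transcripts of Sv2b differed far more than the gene total. Sv2b (chromosome 7, 75114894 to 75309262, minus strand, GRCm38) has 2 main transcripts that share 11 of 13 exons and a coding length of 2049 bases but begin 883 bases apart in different first exons. Sv2b-202, whose first exon lies at 75308874 to 75309262, had 1088 estimated counts in WT against 547 in dE3 and 1016 in cKO. Sv2b-201, whose first exon lies downstream at 75308205 to 75308379, had 79 counts in WT, with 955 in dE3 and 295 in cKO. The downstream start thus made up 6.67% of the gene's counts in WT against 58.8% in dE3 and 22.3% in cKO. Sv2b-201 was 11.0-fold higher in dE3 than in WT (8.75 to 14) and 3.61-fold higher in cKO (2.81 to 4.69), while Sv2b-202 was 2.18-fold lower in dE3. Without Sv2b-201 the log2 ratio of the gene in dE3 against WT turned from 0.32 to -0.86. Counts per transcript are estimates that rest on the reads of the first exons and on 3 bases of the last exon's end, and they have no replicate check.

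The 250 bases before both starts are shown because the transcripts parted there, from RefSeq's promoter windows on GRCm38.p6, 5′ to 3′ on the gene's strand. The first precedes Sv2b-202 at chr7:75309263-75309512 and the second precedes the start next to Sv2b-201 at chr7:75308387-75308636, inside the first intron of Sv2b-202.
Sv2b upstream start: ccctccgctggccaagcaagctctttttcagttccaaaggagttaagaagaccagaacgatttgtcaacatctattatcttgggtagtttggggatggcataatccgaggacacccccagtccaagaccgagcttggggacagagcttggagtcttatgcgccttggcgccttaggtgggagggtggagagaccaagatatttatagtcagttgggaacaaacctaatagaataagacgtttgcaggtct
Sv2b downstream start: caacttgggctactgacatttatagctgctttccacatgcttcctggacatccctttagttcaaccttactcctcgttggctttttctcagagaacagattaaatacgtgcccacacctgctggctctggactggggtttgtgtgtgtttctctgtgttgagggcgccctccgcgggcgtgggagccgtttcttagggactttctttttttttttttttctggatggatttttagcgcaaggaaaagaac
Neither stretch holds any of the words searched on both strands, which were the TCF/LEF core words CTTTGAT and CTTTGAA, the cAMP response element TGACGTCA and the E-box CAGCTG. This says only that these letters are not in these windows.

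**Figure D4:**
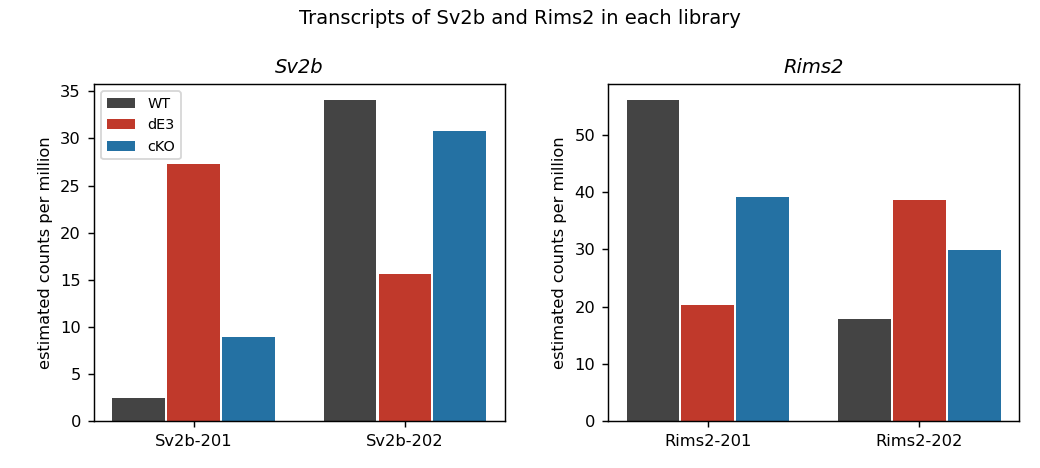
Estimated counts scaled to CPM (vertical axis, from 0) of the 2 main transcripts of Sv2b (left) and Rims2 (right) in the WT, dE3 and cKO libraries, 1 bar per library. Sv2b-201 and Rims2-202 are highest in dE3 and lowest in WT, with cKO between them, and Sv2b-202 and Rims2-201 run the other way.

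The Rab3 cycle genes had a median log2 ratio of -0.38 in dE3 and 0.23 in cKO. Rab3 proteins are GTPases of the vesicle that bind RIM and rabphilin at the active zone. Rab3a stood at 217 CPM in WT, with 181 in dE3 and 258 in cKO. Rab3c, the highest of the 40 genes by counts, stood at 593, 511 and 531 CPM. Per length Rab3a was the more abundant, at 389 TPM in WT against 171 for Rab3c, and was the highest of the 40 genes. The 2 genes parted in cKO, with Rab3a at a ratio of 1.19 (1.16 to 1.23) and Rab3c at 0.895 (0.877 to 0.914), so that their TPM ratio was 2.27 in WT against 2.20 in dE3 and 3.02 in cKO. Rph3a, the Rab3 effector rabphilin, stood at 42.8 CPM in WT, with 30.5 in dE3 and 49.3 in cKO. Doc2b, a calcium sensor with high affinity, stood at 13.9, 9.64 and 16.7 CPM. Both were lowest in dE3 and highest in cKO, and in dE3 against cKO they were 1.62-fold (1.5 to 1.75) and 1.73-fold (1.5 to 1.98) lower. Without the transcript that differed most, the log2 ratio of Rph3a in that comparison turned from -0.69 to 1.62. That transcript, Rph3a-201, held 79.0% of the gene's counts in dE3 and 95.8% in cKO, so few counts were left.

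The SNARE proteins and complexins, which form the fusion complex and clamp it, had medians of -0.28 in dE3 and 0.15 in cKO. Snap25, the plasma membrane SNARE, stood at 200.1 CPM in WT against 145 in dE3 and 178 in cKO. Stx1a, its syntaxin partner, stood at 59.0, 51.0 and 68.6 CPM. Vamp2, the main vesicle SNARE of the brain, stood at 301, 235 and 327 CPM, and Vamp1 at 30.8, 27.5 and 29.3 CPM. Vamp2 exceeded Vamp1 by 13.9 times in WT, 13 times in dE3 and 15.9 times in cKO on the TPM scale. All 4 were lowest in dE3, and Snap25 was also lower in cKO than in WT (ratio 0.888, 0.857 to 0.920).

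Complexin 1 differed widely between the mutant libraries. Cplx1 (chromosome 5, 108518554 to 108550024, minus strand) stood at 126 CPM in WT, with 84.1 in dE3 and 164 in cKO, and Cplx2 at 124, 115 and 140 CPM. Cplx1 was 1.49-fold lower in dE3 than in WT (1.42 to 1.57), just short of the threshold, and its ratio in cKO was 1.30 (1.25 to 1.36). In dE3 against cKO it was 1.95-fold lower (1.86 to 2.03), whereas Cplx2 was 1.21-fold lower (1.16 to 1.27). Nearly all counts of Cplx1 came from 1 transcript in every library, at 99.7% to 99.9%. In the same 3 libraries the 8 motor neuron markers summed to 321, 235 and 489 CPM. The 10 dorsal root ganglion markers summed to 361, 301 and 491 CPM, so both marker sums had the order of Cplx1. This order was not particular to these markers. The 20 pan-neuronal markers had it too, at a summed 16093, 13364 and 17269 CPM, as did 22 of the synaptic genes, Cplx1 among them. The part of motor neuron and dorsal root ganglion RNA in the Cplx1 value was not tested.

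The synaptotagmins, vesicle and membrane proteins with paired C2 domains, held the largest falls and had a median of -0.37 in dE3 and 0.00 in cKO. Syt1, Syt2 and Syt9 are fast calcium sensors of release. Syt1 stood at 222 CPM in WT against 170.4 in dE3 and 218 in cKO, Syt2 at 44.3, 37.9 and 53.5 CPM, and Syt9 at 16.1, 13 and 19.2 CPM. The 3 sensors were lowest in dE3 by 1.17-fold to 1.30-fold against WT. By the authors' TPM values Syt2 stood at 18.1 in WT and 32.1 in cKO, a larger difference than by counts (ratio 1.21).

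Syt7, a calcium sensor of slow and asynchronous release and of vesicle replenishment, had the largest fall. It lies on chromosome 19 (10389090 to 10453181, plus strand) and stood at 166 CPM in WT, with 88.8 in dE3 and 148 in cKO. In dE3 it was 1.87-fold lower than in WT (1.79 to 1.96), and in cKO 1.12-fold lower. Both main transcripts were lower in dE3, Syt7-201 with 1202, 429 and 1100 counts and Syt7-203 with 3502, 2212 and 3219 counts in WT, dE3 and cKO. Syt6 and Syt3, which belong to a subgroup of synaptotagmins linked by disulfide bonds, followed. Syt6 (chromosome 3, 103575231 to 103645569, plus strand) stood at 21.4, 11.9 and 15.8 CPM, 1.8-fold lower in dE3 (1.59 to 2.03). It was the only one of the 5 genes that fell in dE3 whose cKO level lay closer to dE3 than to WT. Syt3 (chromosome 7, 44384102 to 44400187, plus strand) stood at 34.1, 20.9 and 36.9 CPM, 1.64-fold lower in dE3 (1.49 to 1.8). Without the transcript that differed most its log2 ratio was -0.23 in place of -0.71.

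The other synaptotagmins differed less or in the other direction. Syt4, which does not bind calcium in the usual way and sits on dense-core vesicles, stood at 315 CPM in WT against 211 in dE3 and 296 in cKO. At 1.496-fold lower in dE3 it was just outside the threshold. Syt11, also without calcium binding, stood at 371, 291 and 378 CPM. Syt5 stood at 41.3, 35.4 and 33.6 CPM and was one of 4 genes for which cKO was the lowest library. Its ratio of 1.06 in dE3 against cKO had an interval that held 1 (0.973 to 1.15). Syt13, an atypical member, stood at 75.2, 84.4 and 100.4 CPM, lowest in WT. Its ratio was 1.12 (1.06 to 1.18) in dE3 and 1.33 (1.27 to 1.41) in cKO, the highest of the 40 genes in cKO against WT.

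The active zone genes had medians of -0.31 in dE3 and -0.04 in cKO. Bassoon and piccolo are the giant scaffolds of the active zone. Bsn stood at 360.0 CPM in WT, with 289 in dE3 and 376 in cKO, and Pclo at 192, 139 and 186 CPM. Erc2, which links the scaffold to RIM, stood at 135, 101 and 138 CPM. These scaffolds were lowest in dE3, by 1.24-fold to 1.38-fold against WT, and their ratios in cKO lay between 0.970 and 1.04. Rims1 stood at 66.9, 54.6 and 66.9 CPM and Rims2 at 73.8, 58.9 and 68.9 CPM. RIM proteins recruit calcium channels and vesicles to the release site, and both genes were again lowest in dE3.

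As for Sv2b, the main transcripts of Rims2 (chromosome 15, 39198332 to 39681940, plus strand) ran in opposite directions. Rims2-201 had 1790 estimated counts in WT against 708 in dE3 and 1290 in cKO, and Rims2-202 had 568, 1355 and 986. They share 23 of 27 exons and start 31 bases apart. Rims2-202 made up 24.1% of the gene's counts in WT, with 65.7% in dE3 and 43.3% in cKO. For both genes the transcript that was minor in WT was highest in dE3 with cKO between, and the gene total hid most of this difference. Without Rims2-201 the log2 ratio of Rims2 in dE3 against WT turned from -0.33 to 1.12.

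The Munc13 genes, which prime vesicles by opening syntaxin, also split. Unc13a, the main neuronal form, stood at 192 CPM in WT against 175 in dE3 and 171 in cKO. Unc13b (chromosome 4, 43058953 to 43264871, plus strand), which is also made outside neurons, stood at 88.7, 111 and 79.0 CPM and was highest in dE3. Its ratio was 1.25 (1.19 to 1.32) in dE3 and 0.890 (0.844 to 0.939) in cKO, so the mutant libraries lay on opposite sides of WT. Unc13a exceeded Unc13b by 1.36 times in WT, 1.35 times in cKO and 1.02 times in dE3 on the TPM scale. Transcript Unc13b-201 had 1287 counts in WT, with 2217 in dE3 and 1292 in cKO, and without it the log2 ratio of the gene in dE3 was -0.02 in place of 0.32.

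Snap91 encodes AP180, the clathrin adaptor that sizes vesicles as they are retrieved, and was the only endocytic gene among the 40. It lies on chromosome 9 (86765923 to 86880654, minus strand) and stood at 234 CPM in WT against 145 in dE3 and 218 in cKO. The dE3 level was 1.61-fold lower than WT (1.56 to 1.67) and the cKO level 1.08-fold lower. The neurexins, presynaptic adhesion molecules that bind neuroligins across the cleft, differed less. Nrxn2 stood at 382, 318 and 421 CPM and Nrxn3 at 108, 82.7 and 96.0 CPM. Both were lowest in dE3, by 1.20-fold and 1.30-fold, and they lay on opposite sides of WT in cKO, with ratios of 1.10 (1.07 to 1.13) and 0.889 (0.847 to 0.934).

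The promoter of Unc13b, higher in dE3, and that of Snap91, lower there, are set side by side, again as the 250 bases before the RefSeq start (GRCm38.p6). They lie at chr4:43058703-43058952 on the plus strand and chr9:86880709-86880958 on the minus strand. Capitals mark a searched word.
Unc13b: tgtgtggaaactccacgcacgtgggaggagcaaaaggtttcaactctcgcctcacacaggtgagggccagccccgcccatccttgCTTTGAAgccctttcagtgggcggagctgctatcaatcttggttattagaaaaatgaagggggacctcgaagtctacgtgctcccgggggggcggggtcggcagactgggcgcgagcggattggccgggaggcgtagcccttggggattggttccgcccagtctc
Snap91: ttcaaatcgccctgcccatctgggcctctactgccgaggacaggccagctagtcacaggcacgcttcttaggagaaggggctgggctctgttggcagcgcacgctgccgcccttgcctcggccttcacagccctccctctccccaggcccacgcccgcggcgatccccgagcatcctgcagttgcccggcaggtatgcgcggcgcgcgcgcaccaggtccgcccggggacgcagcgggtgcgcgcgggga
The Unc13b stretch holds 1 copy of CTTTGAA and the Snap91 stretch none of the searched words. RefSeq windows of 250 bases before to 50 after a start were matched for 29 of 40 genes (42 windows). CTTTGAA was present in windows of Rab3c, Syt11, Unc13a and Unc13b, and CTTTGAT in 1 window of Sv2b at a start other than those shown. Either word was in 8.65% of all 32851 windows and in 5 of the 42 windows, each of a different gene, of which Sv2b and Unc13b were higher in dE3 and Rab3c, Syt11 and Unc13a lower. TGACGTCA was in the window of Syn1 (1.79% of all windows) and CAGCTG in 13 of the 42 windows, of 11 genes (16.3% of all windows). The start of the Sv2b window with CTTTGAT, at 75220019, is that of another Sv2b transcript. That transcript had 0 estimated counts in WT, 114 in dE3 (7.02% of the gene's counts) and 0 in cKO. Whether the word bears on these counts was not tested. A match is a description of the letters and shows no binding.

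Related gene lists gave the setting of these values. Of 49 other presynaptic genes 48 were measured, while Cplx3, a complexin of retinal ribbon synapses, had 0 counts in every library, which allows up to 3 counts in each. Their median was -0.32 in dE3 and 0.03 in cKO. In dE3 against WT, 2 of 48 were at least 2-fold lower, close to the 3.78% of all measured genes, namely Cadps2, a dense-core vesicle priming factor (15.6 CPM in WT, 6.99 in dE3, 13.5 in cKO), and Doc2a, a calcium sensor (10.5, 5.02 and 11.1 CPM). At 1.5-fold 7 fell and 0 rose, against 8.01% and 11.4% of all measured genes, and Slc17a6, the vesicular glutamate transporter, was among them (201 CPM in WT, 120 in dE3, 171 in cKO). Abundant ones included Cadps, the paralog of Cadps2 (315, 229 and 280 CPM), and Erc1, a scaffold related to Erc2 (220, 178 and 245 CPM), and both were lowest in dE3. In cKO against WT, 2 of 48 rose by 1.5-fold and 0 fell, against 7.2% and 6.67% of all measured genes.

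The 20 pan-neuronal markers, which hold none of the 40 genes, had a median of -0.33 in dE3 and 0.01 in cKO. In dE3 18 of 20 lay below 0, against 49.5% of all measured genes. Map2, a dendritic protein, was the exception that was higher (1050 CPM in WT, 1431 in dE3, 954 in cKO), and Tubb3 was level at 1797, 1805 and 2069 CPM. The 12 neural progenitor markers had medians of 0.12 and -0.12 and summed to 1653, 1681 and 1431 CPM in WT, dE3 and cKO. In dE3 these markers ran both ways, with quartiles of -0.67 and 0.80. At 1.5-fold 3 fell and 4 rose there, against 8.01% and 11.4% of all measured genes. The 8 motor neuron markers had medians of -0.51 and 0.28, and the 10 dorsal root ganglion markers -0.36 and 0.61. Both kinds of neuron also make synaptic vesicle proteins, and their part in the values of the 40 genes was not tested. Medians in dE3 and cKO were 3.90 and 1.86 for skeletal muscle, 5.65 and 3.43 for cartilage, and 0.90 and 0.82 for mesenchyme and meninges. They were -1.46 and 0.12 for astrocyte lineage, -0.15 and 0.13 for oligodendrocyte lineage, 0.25 and 0.46 for endothelial, 0.05 and 0.50 for microglial and 0.04 and 0.25 for erythroid markers. The 7 oligodendrocyte lineage markers also ran both ways in dE3. At 1.5-fold 2 of them fell and 3 rose, against 8.01% and 11.4% of all measured genes. The 7 measured astrocyte lineage markers were mixed there too, with 5 lower and 2 higher by that fold, against the same shares. Although its median was negative, the astrocyte lineage list summed to 689 CPM in dE3 against 646 in WT. That median therefore does not describe the summed RNA of the list.

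**Figure D5:**
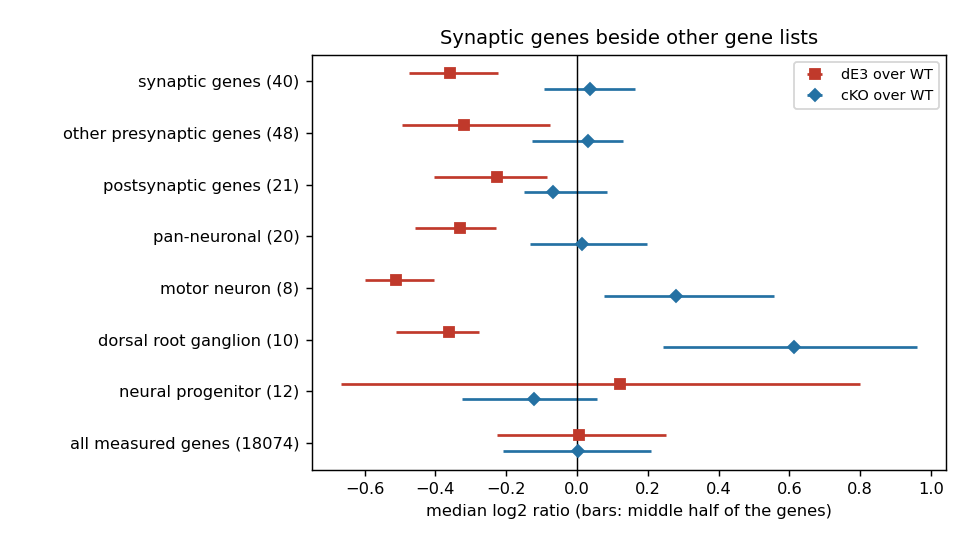
Median log2 ratio to WT (points) and the interquartile range of the genes (bars) in dE3 (squares) and cKO (diamonds) for the synaptic genes, related gene lists and all measured genes, with the number of genes in brackets. In dE3 the synaptic, other presynaptic and pan-neuronal lists lie at -0.36, -0.32 and -0.33, against 0.00 for all genes, and in cKO the same lists lie between 0.01 and 0.04.

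Reads of neighbouring genes bear on some of these values, since the sources used here do not give whether counting used strand. Exons of another gene overlap more than 5% of the exon bases of 7 of 40 genes, the largest shares being 16.8% in Syp, 14.5% in Syt4 and 14.1% in Syn3. Among the genes that fell, Syt6 (8.7%) and Syt7 (5.1%) are of this kind. More than 5% of the sampled 50-base words are shared with another gene's transcripts in Syn3, Syp, Syt4, Syt11 and Nrxn3, whose values are uncertain to that extent.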

How the data were processed

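RNA-seq of embryonic spinal cord was compared between 3 genotypes, 1 library each. Per the labels' protocols, Trizol was used for extraction and a Vazyme mRNA kit for the libraries. CASAVA, Bowtie2 2.3.2 and GRCm38.p6 are named, with no role, in the submitters' processing notes. How reads were assigned to genes, and whether by strand, is not given in the sources used here. The authors deposited estimated counts (whole numbers), TPM and FPKM values per gene and transcript, per the file headers. The counts were the main measure, the deposited TPM an alternative and a scale for levels per length, and the deposited FPKM served only to examine units.

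Genes reaching 20 counts in any library were kept, and counts were scaled by TMM (edgeR 4.0.16, R 4.3.3; factors 0.993, 1.01 and 0.999). Ratios were given exact conditional binomial intervals at 95% (scipy 1.17.1), which cover counting error only, since without molecular identifiers reads do not count molecules. No p-value was computed. Calls needed a ratio of at least 2 or 1.5 and an interval without 1. For the authors' TPM values no interval was computed, so calls there rested on the ratio alone. The steps were tested on simulated counts with counting error only, as the interval assumes. That test cannot speak to spread between embryos or to how reads were assigned to transcripts. Gene coordinates are those of the deposited table, which equalled GENCODE vM21 (GRCm38) for 36 of 40 members. Exons came from GENCODE vM21 and promoter sequences from RefSeq on GRCm38.p6.

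The members, roles and gene lists were chosen with earlier results of these data known, so they are no independent evidence of a direction. All 40 members are named, beside listed genes that passed 2-fold or were most abundant; Slc17a6, Map2, Tubb3, Actc1 and Ttn were named after their values were seen. One gene that this rule selects is not reported here. Alternatives were median-of-ratios factors (DESeq2 1.42.0), library totals, scaling to pan-neuronal markers, other count minimums, TPM, and leaving out the transcript that differed most.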

Additional observations from a re-analysis of the deposited data

How the results depend on the processing

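In dE3 against WT, library totals, median-of-ratios factors, the authors' TPM values, a minimum of 100 counts and no minimum each left 36 genes below 0, with a median of -0.37 to -0.32 and 5 to 7 genes at least 1.5-fold lower. Scaling to the pan-neuronal markers moved the median of all measured genes by comparison to 0.30 in dE3 against WT, -0.05 for cKO to WT and 0.37 for dE3 to cKO. In dE3 against WT it gave a median of -0.0596 for the 40 genes, with 1 gene 2-fold higher, 3 at least 1.5-fold higher and 1 at least 1.5-fold lower. In dE3 against cKO it gave a median of -0.0728, with 1 gene 2-fold higher, 2 at least 1.5-fold higher, and 1 lower by that fold. For this scaling, and for the transcript setting that follows, shares of all measured genes were not counted. Leaving out the transcript that differed most left a median of 24.0%, 25.1% and 19.6% of a gene's counts in the 3 comparisons. In dE3 against WT it gave a median of -0.17, with 2 genes 2-fold higher, 2 genes 2-fold lower and 3 at least 1.5-fold higher. In cKO against WT it gave 2 genes at least 1.5-fold higher, and 1 lower by that fold. In dE3 against cKO it gave a median of -0.11, with 1 gene 2-fold higher, 1 gene 2-fold lower and 3 at least 1.5-fold higher. Under this setting the sign changed for 14 of 39 genes in dE3 against WT, leaving 25 below 0, for 21 in cKO against WT and for 13 in dE3 against cKO. Sv2c (-0.53 to 1.23), Rph3a (-0.49 to 0.83), Syt1 (-0.38 to 0.54) and Vamp2 (-0.36 to 0.29) were among the 14. Such signs can rest on few counts. In dE3 against WT 14 of the 35 genes with 2 or more transcripts kept under 10% of their counts. In WT the transcript left out held 99.7% of the counts of Sv2c and 96.3% of those of Vamp2. Of genes called at 1.5-fold, Syn2 reversed in dE3 against WT (0.0898 in place of -0.66) and Rph3a in dE3 against cKO (1.62 in place of -0.69). By ratio alone, the authors' TPM values put 1 gene over 1.5-fold up and 1 down in cKO against WT. In dE3 against cKO, median-of-ratios factors gave 0 genes at least 1.5-fold higher, as did a minimum of 100 counts, which removes Sypl2, and no minimum, which also gave 12 at least 1.5-fold lower. The cause of these differences was not tested. No paired analysis was possible because each genotype has 1 library. Depth limits Sypl2 alone among the 40 genes, the next lowest having 550 counts in its highest library.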

Other observations

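Postsynaptic genes, which build the receptor side of the synapse, were mostly lower in dE3 than in WT as well. For 20 listed symbols 21 rows of the table were measured, since Dlg2 has 2. They had a median log2 ratio of -0.22 in dE3 against -0.07 in cKO. Below 0 in dE3 lay 19 of 21, against 49.5% of all measured genes. In dE3 against WT, 4 of 21 were at least 1.5-fold lower, against 8.01% of all measured genes. They were the scaffold genes Dlgap1 (61.1 CPM in WT, 31.6 in dE3, 40.5 in cKO), Shank2 (78.6, 43.4 and 72.8 CPM) and Homer2 (61.9, 40 and 63.9 CPM) and the adhesion gene Lrrtm1 (39.5, 23.6 and 47.1 CPM). In cKO against WT, Homer1 (66.9 CPM in WT, 44.7 in dE3, 42.5 in cKO) and Dlgap1 were at least 1.5-fold lower, 2 of 21 against 6.67% of all measured genes. The genes named here were chosen after their values were seen.

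Transcripts of other synaptic genes also ran apart. Pclo-201 had 4162 estimated counts in WT against 2667 in dE3 and 3820 in cKO. Pclo-203, annotated as a retained intron with no coding sequence, had 1576, 1918 and 1544. The share of Pclo-203 in the counts of Pclo was 25.7%, 39.3% and 25.2%. Rims1-203, the main transcript of Rims1 in WT, had 767, 546 and 404 counts, Rims1-201 had 217, 412 and 526, and Rims1-206, the main one in both mutant libraries, had 630, 687 and 608. Erc2-201 made up 18.7% of Erc2 in WT, 31.4% in dE3 and 30.4% in cKO. These shares are estimates from 1 library per genotype, with no replicate check.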
